A study of Mus musculus with 16 samples.

Results

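The genes described here are the 7 genes of the colony-stimulating factor (CSF) axis that a fixed list names, out of 19822 genes kept in the tables: the ligand genes Csf1, Il34, Csf2 and Csf3 and the receptor genes Csf1r, Csf2rb and Csf3r. They were chosen by name and by no cut on a measured value, though with earlier results of these data known. All 7 were present in the tables. Their unique molecular identifiers (UMIs, each standing for 1 captured RNA molecule) were counted in 8 HiSeq tables of Drop-seq, a droplet method that tags the 3′ ends of the RNAs of single cells. Cells came from end-stage mammary tumours of 2 mouse models, sorted only for live single cells. WB1P mice carry WapCre;Brca1F/F;Trp53F/F, in which Cre is driven by the whey acidic protein promoter of the mammary epithelium and deletes Brca1 and Trp53. WB1P-Myc mice carry the same alleles and in addition a Myc transgene, and neither model was treated. The age of the mice was not given in the sources used here.

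Each model went into droplets as 1 cell suspension, from a pair of mice, and 4 droplet fractions of it were sequenced as 4 libraries. The fractions are therefore technical, each model is 1 sample, so that the model cannot be told apart from anything else that differed between the 2 suspensions. No test between the models is possible with 1 sample each, none was run between cell classes, and all intervals below cover counting error only. Of 8000 barcodes, 4798 had 450 to 4000 genes and under 20% mitochondrial UMIs and were kept, 1307 from WB1P and 3491 from WB1P-Myc. The kept cells of a library held 94408 to 1133467 UMIs in WB1P and 2767838 to 3365270 UMIs in WB1P-Myc. The first WB1P fraction gave only 65 cells, and no ratio recomputed without it left its counting interval. Only 1 kept barcode sequence was found in more than 1 library. Myc itself was counted at 67.9 UMIs per 1000000 UMIs in the epithelial-like cells of WB1P and at 204 in those of WB1P-Myc, with no overlap between the fractions of the models (33.6 to 93.9 against 192 to 216). The transgene is named invCAG-Myc-IRES-Luc and has further sequence after Myc, so its 3′ tags may not be counted as Myc. How many of these UMIs came from the transgene was not tested.

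CSF-1, the product of Csf1, and interleukin-34, the product of Il34, are separate ligands of the receptor tyrosine kinase that Csf1r encodes, and signalling through that receptor keeps macrophages alive and dividing. Csf2 encodes GM-CSF, which acts through an alpha chain and the beta chain that Csf2rb encodes, and the beta chain also serves the receptors of interleukin-3 and interleukin-5. Csf3 encodes G-CSF, which acts through the receptor of Csf3r on neutrophils and their precursors. In mammary tumours, stromal and tumour cells are known sources of CSF-1, and macrophages are the main cells that carry its receptor.

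Csf1 lies on the minus strand of chromosome 3 (chr3:107741048-107760469, mouse build mm10, GENCODE M21). Il34 lies on the minus strand at chr8:110741829-110805924, Csf2 on the minus strand at chr11:54247271-54249667, and Csf3 on the plus strand at chr11:98701263-98703629. Transcripts antisense to Il34 are annotated at its locus and were counted separately, and reads of overlapping genes are uncertain where the counting did not use strand.

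The window around the start of Csf1 is shown because Csf1 is the ligand with most UMIs in these tumours. It holds 250 bases before and 50 bases after the gene start, from RefSeq on build GRCm38.p6, at chr3:107760420-107760719 on the minus strand, and is written 5′ to 3′ in the direction of the gene. Capitals mark a match of 10 bases to the NF-kB consensus motif, searched on both strands; this consensus was chosen after a narrower search had matched here.
Csf1 promoter: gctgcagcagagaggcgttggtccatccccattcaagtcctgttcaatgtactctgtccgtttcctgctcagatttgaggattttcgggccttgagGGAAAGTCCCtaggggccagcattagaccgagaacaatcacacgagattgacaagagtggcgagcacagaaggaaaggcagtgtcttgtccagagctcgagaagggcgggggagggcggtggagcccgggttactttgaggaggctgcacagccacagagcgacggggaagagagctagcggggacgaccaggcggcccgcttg
The match starts 154 bases before the gene start. The motif was found in 2779 of 32851 RefSeq promoter windows of 300 bases (8.46%). The window of Csf3r (chr4:126024409-126024708) held 1 match, 129 bases before its RefSeq start, and that of Csf2 (chr11:54249850-54250149) held none. For these 2 genes the RefSeq start differs from the GENCODE start given in this report. The Csf2 window does not reach the GENCODE start at 54249667, so the bases next to that start were not searched. Of the other genes of the axis, Csf1r was left out of this search, and Il34, Csf3 and Csf2rb had no window to search. No binding was measured here, and the match is a description of the letters only.

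Cells were classed by clusters whose leading genes included markers listed for each cell type, with the 7 genes and 30 further genes of the pathway left out of the clustering. Macrophage-like cells numbered 380 in WB1P and 697 in WB1P-Myc, led by C1qa, C1qb, C1qc, Lyz2, Ms4a7 and Aif1. Fibroblast-like cells numbered 218 and 275, led by Col1a1, Col1a2, Col3a1 and Dpt. Endothelial-like cells numbered 37 and 72, led by Cdh5, Emcn, Plvap and Pecam1. Epithelial-like cells numbered 657 and 903 but came from different clusters in the models: nearly all WB1P cells lay in a cluster led by Epcam, Krt7, Krt8 and Krt18, and nearly all WB1P-Myc cells in a cluster where Krt14, Krt17, Krt19 and Cdh1 led but none of the markers was among its top 10 genes. A further 770 WB1P-Myc cells were Schwann-like (Mbp, Sox10, S100b), and 789 cells, 774 of them WB1P-Myc, were led by Col2a1, Acan and Col11a1 and were left unnamed, with 3 of the Schwann markers also leading there. The last 2 classes had at most 15 cells in WB1P and were not compared between the models.

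Csf1 was highest in the fibroblast-like cells of both models. Levels are given as UMIs of the gene per 1000000 UMIs of the pooled cells (CPM), and 1 tag is counted per RNA molecule whatever its length. Fibroblast-like cells held 165 Csf1 UMIs in WB1P, 283 CPM (exact Poisson 95% interval 241 to 329), spread over 71 cells with at most 10 UMIs in a cell. In WB1P-Myc they held 279 UMIs, 289 CPM (256 to 325), in 117 cells with at most 11 in a cell. Over the droplet fractions the level was 352, 251 and 249 CPM in WB1P (the first fraction had 2 fibroblast-like cells and no Csf1 UMI) and 239, 320, 365 and 220 CPM in WB1P-Myc. The 2 models overlapped, and the log2 ratio of WB1P-Myc over WB1P was 0.03 (−0.25 to 0.32).

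Among classes with 20 or more cells in a model, macrophage-like cells ranked second for Csf1. They held 50 UMIs in WB1P (75.2 CPM, 55.8 to 99.2) and 47 UMIs in WB1P-Myc (36.6 CPM, 26.9 to 48.7), the latter in 23 cells of which 1 cell gave 16 UMIs. Fibroblast-like cells were above them by a log2 ratio of 1.91 (1.45 to 2.40, 3.76-fold) in WB1P and 2.98 (2.53 to 3.46, 7.89-fold) in WB1P-Myc. Without the cell with most Csf1 UMIs in each of the classes compared, the latter was 3.54 (3.00 to 4.12). Epithelial-like cells held 63 UMIs in WB1P (31.2 CPM) and 57 UMIs in WB1P-Myc (13.1 CPM), and fibroblast-like cells were above them by 3.18 (2.75 to 3.62) and 4.47 (4.05 to 4.91) on the log2 scale.

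In WB1P the order of Csf1 was thus fibroblast-like, macrophage-like and epithelial-like cells, with intervals that did not overlap between neighbours, and no Csf1 UMI was found in the 37 endothelial-like cells, which allows up to 49.5 CPM. In WB1P-Myc the Schwann-like cells (11.5 CPM, 41 UMIs) and the unnamed cells led by Col2a1 and Acan (11.4 CPM, 18 UMIs) overlapped with the epithelial-like cells, and the endothelial-like cells (22.5 CPM, 4 UMIs) overlapped with all of them and with the macrophage-like cells. Fibroblast-like cells were 16.7% of the WB1P cells and held 58.7% of the Csf1 UMIs of all kept cells. In WB1P-Myc they were 7.88% of the cells and held 62.6% of the UMIs. Cell shares here also reflect the digestion and the sort.

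Free RNA from broken cells can put UMIs of a gene into droplets of other cells, and Csf1 was therefore set beside the collagen genes Col1a1 and Col1a2, the hallmark RNAs of fibroblasts. Fibroblast-like cells held 10.0 Csf1 UMIs per 1000 UMIs of the collagen pair in WB1P and 9.91 in WB1P-Myc. Macrophage-like cells held 575 and 276, epithelial-like cells 106 and 30.9, and Schwann-like cells 76.9 per 1000. Relative to the collagen pair, Csf1 in these classes was higher than in the fibroblast-like cells. Free RNA as a source of these UMIs was not tested. With every cell thinned to 600 UMIs, 9.17% and 13.5% of the fibroblast-like cells of WB1P and WB1P-Myc held a Csf1 UMI, against 3.68% and 1.29% of the macrophage-like cells and 1.98% and 0.664% of the epithelial-like cells (unthinned 32.6% and 42.5%, 10.5% and 3.30%, and 6.70% and 5.09%).

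**Figure D1:**
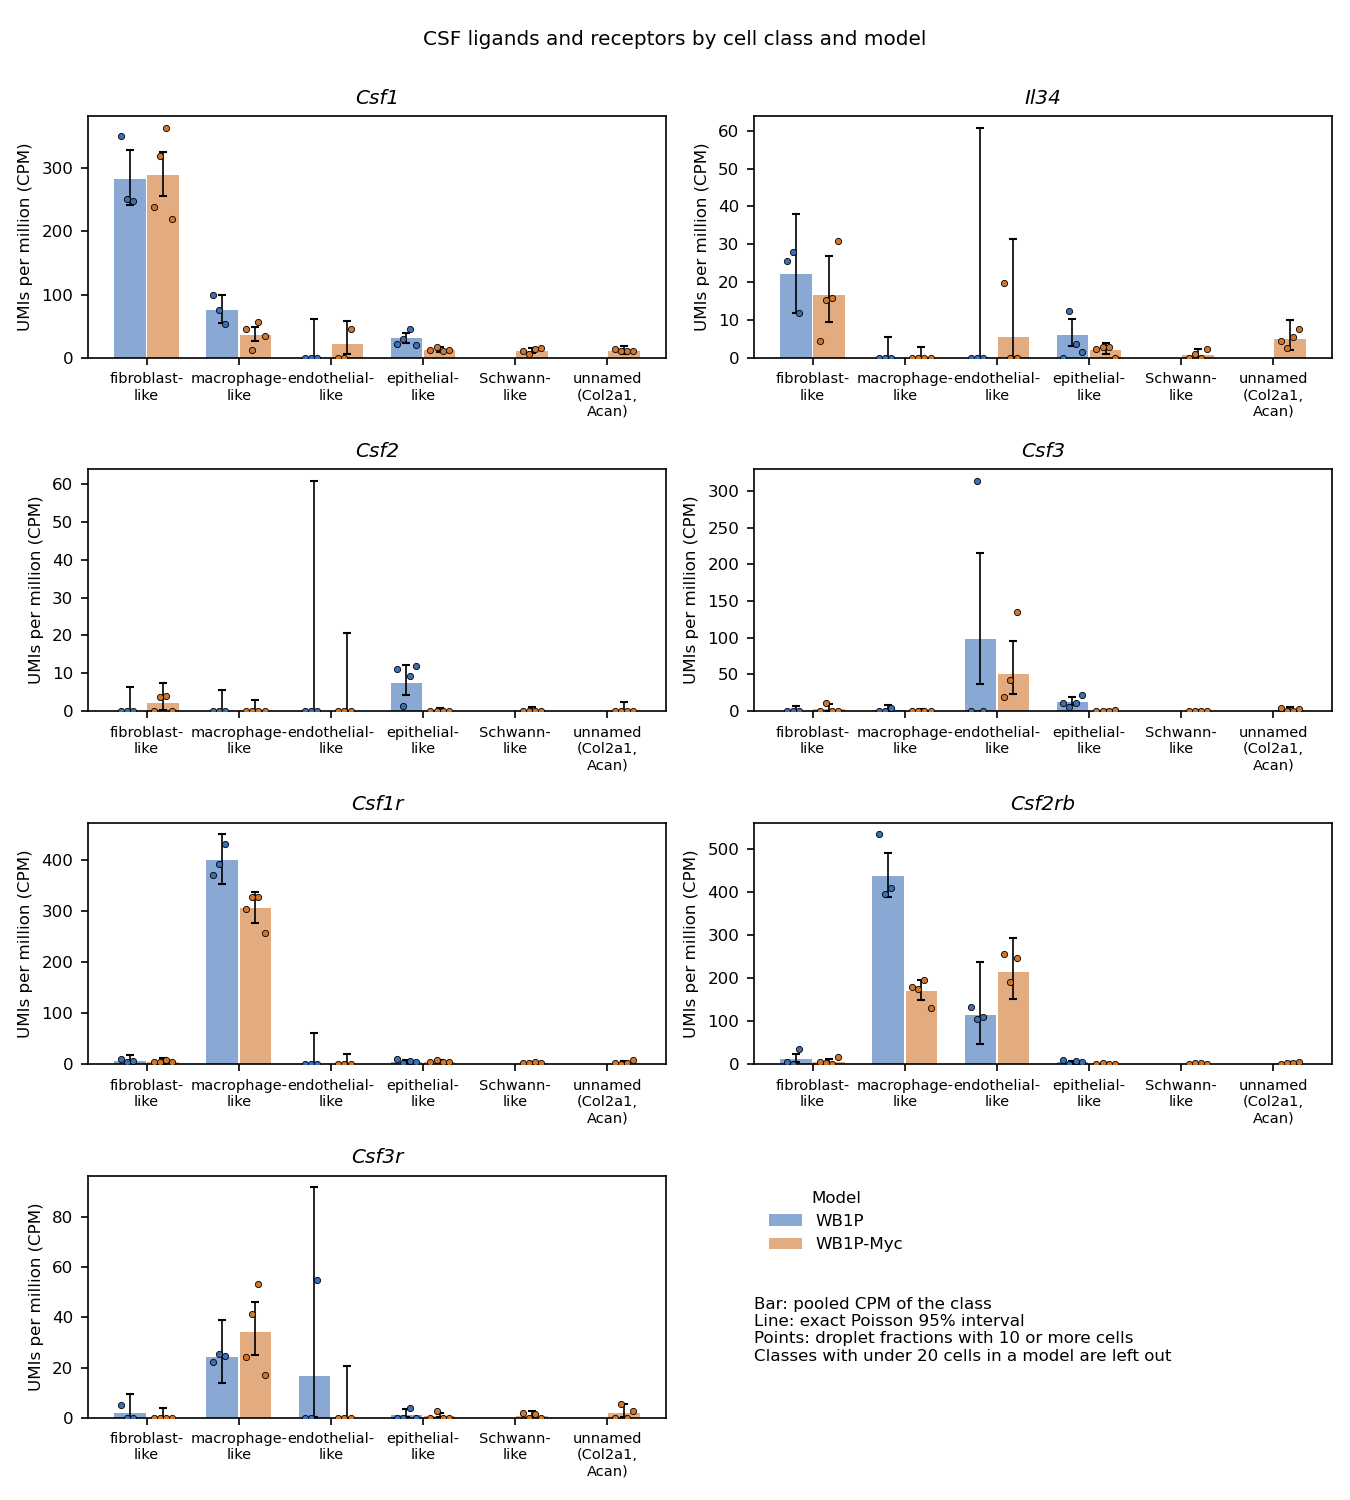
Level of each of the 7 genes (CPM, linear axis) by cell class in WB1P (blue) and WB1P-Myc (orange); bars are pooled levels, lines exact Poisson 95% intervals and points droplet fractions with 10 or more cells, and classes under 20 cells in a model are left out. Csf1 was highest in fibroblast-like cells (283 and 289 CPM), Csf1r in macrophage-like cells (399 and 305 CPM), and Csf2rb in macrophage-like and endothelial-like cells.

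Il34, the second ligand of CSF1R, was rarer. Fibroblast-like cells held 13 UMIs in WB1P (22.3 CPM, 11.9 to 38.1) and 16 in WB1P-Myc (16.6 CPM, 9.48 to 26.9). The fractions gave 25.5, 27.9 and 11.8 CPM in WB1P and 4.51, 15.2, 15.8 and 30.8 CPM in WB1P-Myc, which overlapped. Epithelial-like cells held 12 UMIs (5.95 CPM) and 9 UMIs (2.06 CPM). Macrophage-like cells held no Il34 UMI in 380 and 697 cells, which allows up to 4.51 CPM in WB1P and 2.34 CPM in WB1P-Myc (3 counts). Csf1 exceeded Il34 in UMIs in the fibroblast-like cells of both models, 165 against 13 and 279 against 16.

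Csf2 and Csf3 were counted in few cells. In WB1P, epithelial-like cells held 15 Csf2 UMIs (7.44 CPM) in 7 cells, 6 of them in 1 cell, and the fractions gave 11.2, 1.39, 9.21 and 12.0 CPM. In WB1P-Myc, 903 epithelial-like cells held none. Set against 3 counts there, the WB1P point value was 10.8-fold higher, and the upper end of the interval of the log2 ratio was −2.96. Outside the epithelial-like cells, Csf2 was seen only as 2 UMIs in the fibroblast-like cells of WB1P-Myc.

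Csf3 was found in WB1P epithelial-like cells with 26 UMIs (12.9 CPM) in 13 cells, at most 7 in a cell, and the fractions gave 11.2, 5.55, 11 and 22.6 CPM. WB1P-Myc epithelial-like cells held 2 UMIs in 1 cell (0.458 CPM). Endothelial-like cells had the highest Csf3 level in both models, 99.0 CPM in WB1P and 50.7 CPM in WB1P-Myc, but from 6 UMIs in 2 cells and 9 UMIs in 4 cells. All 6 UMIs of WB1P came from 1 fraction.

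Nearly all Csf1r UMIs lay in the macrophage-like cells. It lies on the plus strand of chromosome 18 (61100598 to 61132149, mm10), where Hmgxb3 on the opposite strand overlaps it. Macrophage-like cells held 265 UMIs in WB1P, 399 CPM (352 to 450), and 391 in WB1P-Myc, 305 CPM (275 to 337). The fractions gave 369, 391 and 431 CPM in WB1P and 304, 328, 327 and 256 CPM in WB1P-Myc, and the models did not overlap. The other classes with 20 or more cells lay at or under 6.86 CPM, and endothelial-like cells held no Csf1r UMI. The log2 ratio of macrophage-like cells over all other cells was 6.26 (5.48 to 7.15) in WB1P. In WB1P-Myc it was 6.17 (5.73 to 6.65), and macrophage-like cells held 95% and 89.7% of the Csf1r UMIs of the models.

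A Csf1r UMI was seen in 41.1% and 37.7% of the macrophage-like cells at a median of 1446 and 1488 UMIs per cell. The share was 1.52% and 1.77% in epithelial-like cells, given for comparison, at medians of 1895 and 3914 UMIs. Relative to the complement genes C1qa, C1qb and C1qc, which mark macrophages, Csf1r stood at 59.7 and 71.6 UMIs per 1000 in macrophage-like cells and at 149 and 128 per 1000 in epithelial-like cells, from only 67 and 188 complement UMIs there. Free RNA and mixed droplets were not told apart in these classes. Without cells that held 3 or more markers of another lineage, the WB1P-Myc log2 ratio of macrophage-like cells over the rest was 7.11. That filter takes out cells of other named classes with 3 or more macrophage markers. The higher ratio therefore partly follows from the filter itself.

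Csf2rb, the shared beta chain gene (plus strand, chr15:78325752-78353847), was carried by macrophage-like and endothelial-like cells. Macrophage-like cells held 291 UMIs in WB1P, 438 CPM (389 to 491), and 219 in WB1P-Myc, 171 CPM (149 to 195). The fractions gave 535, 395 and 410 CPM against 181, 174, 195 and 130 CPM, and the models did not overlap. Endothelial-like cells held 7 UMIs in WB1P (116 CPM, 46.4 to 238) and 38 in WB1P-Myc (214 CPM, 151 to 294), the latter with 8 UMIs in 1 cell. Their fractions gave 133, 105 and 110 CPM in WB1P and 256, 192, 141 and 247 CPM in WB1P-Myc, which did not overlap, but the log2 ratio of the models had an interval that spans no change (0.89, −0.29 to 2.30). Their complement genes were at 2 and 4 UMIs, beside the 7 and 38 Csf2rb UMIs. In macrophage-like cells the complement genes exceeded Csf2rb by over 10 to 1. Free RNA and mixed droplets as a source of the endothelial-like Csf2rb UMIs were not tested.

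In WB1P, Csf2rb was lower in endothelial-like than in macrophage-like cells by a log2 ratio of −1.92 (−3.25 to −0.86). In WB1P-Myc the 2 classes did not differ beyond counting error, with a log2 ratio of 0.33 (−0.21 to 0.83), and the sign turned without mixed cells (−0.09) and when thinned to 600 UMIs (−0.91). Fibroblast-like cells lay at 12.0 and 6.22 CPM and epithelial-like cells at 4.46 and 1.15 CPM. The neighbouring gene Csf2rb2 (minus strand, chr15:78282507-78305721) encodes a near-identical chain, so the split of reads between the pair is uncertain. It was counted at 94.8 and 50.7 CPM in macrophage-like cells and at 82.5 and 78.8 CPM in endothelial-like cells.

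Csf3r, the G-CSF receptor gene (plus strand, chr4:126024550-126044440), was low in all kept classes. Macrophage-like cells held 16 UMIs in WB1P (24.1 CPM, 13.8 to 39.1) and 44 in WB1P-Myc (34.3 CPM, 24.9 to 46.1). The fractions gave 22.0, 25.2 and 24.6 CPM and 24.1, 41.3, 53.4 and 17.1 CPM, which overlapped. Every other class held at most 3 Csf3r UMIs per model.

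The comparison of the models asked whether ligand or receptor levels differed within a class when the tumour also carried Myc. In macrophage-like cells, 2 of the 4 genes with at least 10 UMIs over both models were 2-fold or more lower in WB1P-Myc, Csf1 and Csf2rb, and none was 2-fold higher. Of 9857 genes with as many UMIs in these cells, 5.83% were 2-fold or more lower and 12.8% were 2-fold or more higher, and the median log2 ratio over these genes was 0.17. These shares move with the scaling: 575 genes were lower and 1263 higher by total UMIs, against 747 lower and 1028 higher with TMM factors. The median log2 ratio of the 4 genes was −0.71.

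Csf2rb was lower in WB1P-Myc macrophage-like cells by a log2 ratio of −1.36 (−1.62 to −1.10, 2.56-fold). Leaving out each fraction in turn moved it between −1.44 and −1.23. Csf1 was lower there by −1.04 (−1.64 to −0.43, 2.05-fold), with fractions of 99.2, 75.7 and 53.4 CPM in WB1P and 45.2, 11.8, 56.5 and 34.1 CPM in WB1P-Myc, which overlapped. That ratio was −0.72 without the second WB1P-Myc fraction and −0.85 without the second WB1P fraction, both under 2-fold, and −1.46 without the cell with most Csf1 UMIs of each model. Csf1r was lower by −0.39 (−0.62 to −0.16), under 2-fold, and Csf3r stood at 0.51 (−0.34 to 1.44).

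In fibroblast-like cells, none of the 3 genes with enough UMIs passed 2-fold in either direction. Csf1, at 0.03, moved to −1.05 with classes set per cell from its own markers and to 0.56 when thinned to 600 UMIs. Of 9673 genes, 5.39% were 2-fold or more lower and 9.71% higher in WB1P-Myc. Il34 had a log2 ratio of −0.43 (−1.57 to 0.75), which was 0.33 without mixed cells, and Csf2rb of −0.95 (−2.80 to 0.85), both with intervals that span no change.

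In epithelial-like cells, 5 of 6 genes were 2-fold or more lower in WB1P-Myc and none was higher. Of 13460 genes, 17.8% were 2-fold or more lower and 19.4% higher there. Csf2 and Csf3 met the limit on UMIs summed over both models through WB1P alone. They had 15 and 26 UMIs in WB1P, against none and 2 in WB1P-Myc. Il34 (12 UMIs in WB1P and 9 in WB1P-Myc) and Csf2rb (9 and 5) also rested on few UMIs. With so few genes and UMIs, the count of 5 cannot set the axis apart from all genes. Csf1 had a log2 ratio of −1.26 (−1.80 to −0.72, 2.39-fold), and its fractions did not overlap, with 22.4, 30.5, 46.0 and 21.1 CPM in WB1P and 12.0, 16.7, 10.7 and 12.9 CPM in WB1P-Myc. Without the WB1P fraction numbered 3 the ratio was −0.98, just under 2-fold. Csf3 had a log2 ratio of −4.81 (−7.93 to −2.82), −4.15 without the WB1P fraction numbered 4 and −2.46 when thinned to 600 UMIs. Csf2 had no UMI in the epithelial-like cells of WB1P-Myc, as given above.

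Il34 in epithelial-like cells had a ratio of −1.53 (−2.96 to −0.16), but 9 of the 12 WB1P UMIs came from the second fraction, and without it the ratio was −0.17. Csf2rb had −1.96 (−3.89 to −0.23) from 9 and 5 UMIs, and −2.87 without the second WB1P-Myc fraction, and free RNA was not told apart at this level. Csf1r stood at 0.15 (−0.97 to 1.38). The classes compared here are different clusters in the 2 models, as described above, so these are values of the epithelial-like cells of each tumour and not of a matched cell state. When clustered at a higher resolution, only 10 WB1P-Myc cells kept the epithelial name, and the Csf1 ratio was then 0.37 (−4.95 to 2.90).

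**Figure D2:**
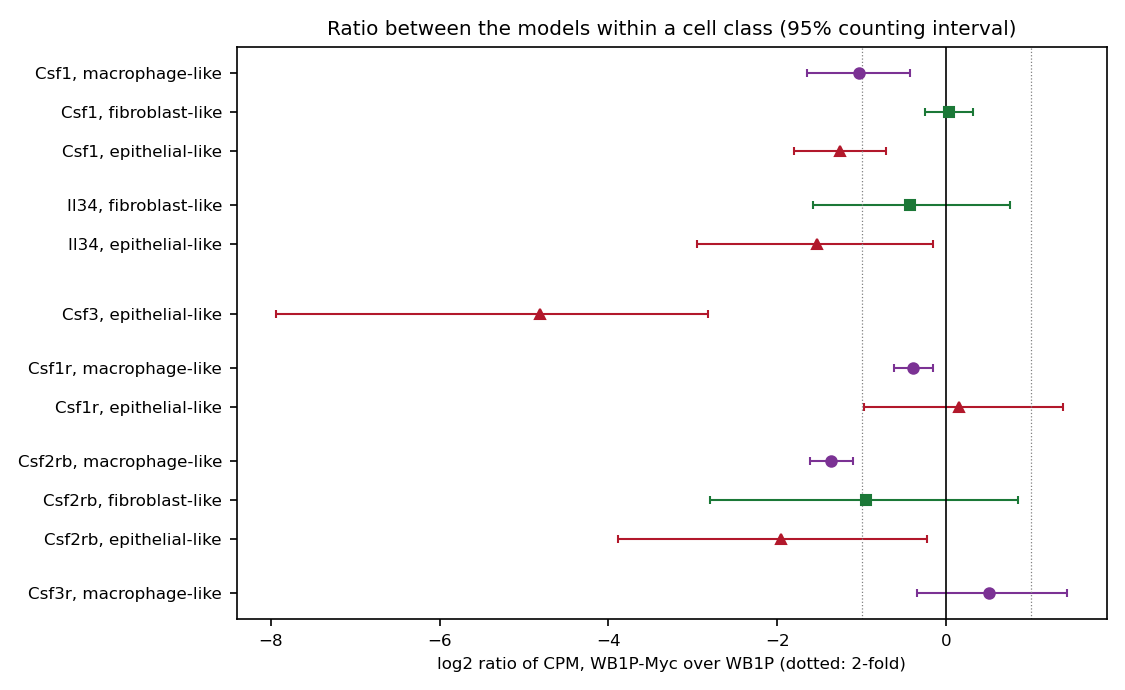
Log2 ratio of WB1P-Myc over WB1P within macrophage-like, fibroblast-like and epithelial-like cells. Genes of the axis are drawn where they had at least 10 UMIs over both models and a UMI in each. Points are pooled ratios, lines exact 95% counting intervals and dotted lines mark 2-fold. Csf2rb in macrophage-like cells (−1.36) and Csf1 in epithelial-like cells (−1.26) lay below the 2-fold line, and Csf1 in fibroblast-like cells lay at 0.03.

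Further genes of the pathway were taken from a list of 33: receptor chains, ligands of the beta chain, partners of CSF1R, JAK-STAT genes, myeloid transcription factors and shedding proteases. Il3, Il5 and Il5ra were not among the genes kept, which left 30. In macrophage-like cells, 29 had at least 10 UMIs, of which 2 were 2-fold or more lower in WB1P-Myc and 3 higher, with a median log2 ratio of −0.12. In fibroblast-like cells it was 2 lower and 1 higher of 21, with a median of −0.28. In epithelial-like cells it was 5 lower and 3 higher of 27, with a median of −0.31. With both directions summed, none of these shares was above that of all genes in the same class. Genes lower in WB1P-Myc alone were 2 of 29, 2 of 21 and 5 of 27, beside 5.83%, 5.39% and 17.8% of all genes. Counts this small cannot set the list apart from all genes. The shares rest on few genes and are given as a description only.

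Of the 7 JAK-STAT genes, 2 were lower and 2 higher in macrophage-like cells, where 5.83% of all genes were lower and 12.8% higher, and both higher genes had intervals that span no change. Socs3, a feedback inhibitor of JAK signalling, stood at 111 CPM in WB1P and 43.7 CPM in WB1P-Myc macrophage-like cells (log2 −1.35, −1.88 to −0.83), and the ratio was under 2-fold when thinned to 600 UMIs (−0.88). It was also at 223 against 93.3 CPM in fibroblast-like cells (−1.26, −1.66 to −0.86), and −0.92 there without the WB1P fraction numbered 4 and −0.79 with classes set per cell. In endothelial-like cells it stood at 330 against 124 CPM (−1.41, −2.36 to −0.46). In epithelial-like cells Socs3 stood at 75.8 and 87.9 CPM. Cish, another feedback inhibitor and a target of STAT5, had 15 UMIs in the macrophage-like cells of WB1P and 5 in those of WB1P-Myc (−2.53, −4.35 to −1.0). Of the 15, 11 lay in the leukocyte subcluster led by Mgl2 and Il1r2, where the ratio was −2.44 (−7.87 to 0.34). The STAT5 genes themselves were rare there: Stat5a had 1 and 9 UMIs, with an interval that spans no change (2.22, −0.63 to 7.68), and so did Stat5b with 4 and 17 UMIs (1.14, −0.48 to 3.17). Stat5b in epithelial-like cells had 4 and 42 UMIs (2.28, 0.82 to 4.22).

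Socs1, a further inhibitor of the same group, was lower in WB1P-Myc fibroblast-like cells, at 30.1 against 89.1 CPM (−1.57, −2.28 to −0.89). Jak2, the kinase that the beta chain recruits, was lower in epithelial-like cells, at 8.01 against 25.3 CPM (−1.66, −2.32 to −1.01). Among the partners of CSF1R, none of 9 was 2-fold lower in macrophage-like cells and only the kinase gene Fyn was higher, at 40.5 against 16.6 CPM (1.29, 0.34 to 2.38), near the 12.8% of all genes that were higher there.

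None of the 7 myeloid transcription factors compared in macrophage-like cells or the 5 compared in fibroblast-like cells passed 2-fold, and in epithelial-like cells 3 were lower and 1 higher, against 17.8% and 19.4% of all genes. Cebpb stood at 877 CPM in WB1P and 141 in WB1P-Myc epithelial-like cells (−2.63, −2.77 to −2.50; −0.12 at the higher clustering resolution with its 10 WB1P-Myc cells and −0.86 in the MiSeq tables), and Runx1 at 147 and 52.2 CPM (−1.49, −1.75 to −1.24). Among the receptor chains, Sdc1, which encodes a syndecan that can bind interleukin-34, stood at 295 and 43.3 CPM in epithelial-like cells (−2.77, −3.01 to −2.53), with −0.72 in the shallower MiSeq tables. Csf2ra, the alpha chain that pairs with the beta chain for GM-CSF and named here after its values were seen, was at 200 and 130 CPM in macrophage-like cells (−0.62, −0.96 to −0.28) and at 0 and 1 UMI in endothelial-like cells. Csf2rb2 had a ratio of −0.90 (−1.43 to −0.38) in macrophage-like cells. Both shedding proteases stayed under 2-fold in all 3 classes. The rest past 2-fold, named here after their values were seen, were Cbl in fibroblast-like cells, at 24.9 against 10.3 CPM (1.27, −0.05 to 2.86), and in epithelial-like cells Klf4 (142 against 299.9 CPM), Tyrobp (25.9 against 11.9 CPM) and Cebpa (24 against 5 UMIs; 1.15, −0.27 to 2.90). Tyrobp stood at 1866 to 2113 CPM in macrophage-like cells, and free RNA was not told apart in its epithelial-like values.

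The macrophage-like cells were clustered again to see how the receptors were spread among them, which gave 6 subclusters. The first, macrophage-like by its markers (C1qb, C1qc, Cd68, Ms4a7, Trem2), held 72 WB1P and 290 WB1P-Myc cells. The second was led by Mgl2, Il1r2 and antigen presentation genes and held 142 and 96 cells. The third was led by Arg1, Mmp12, Ero1l and Bnip3 and held 78 and 139 cells. The fourth was led by Ccl8, Mrc1 and F13a1 and held 75 and 100 cells. The fifth was led by cell cycle genes (3 and 44 cells), and the sixth was T or NK-like (10 and 28 cells). The mix of subclusters thus differed between the models, and its part in the ratios of the whole class was not tested beyond the values within subclusters below.

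Csf1 among the macrophage-like cells was highest in the subcluster led by Arg1. It stood there at 154 CPM in WB1P (19 UMIs in 12 cells) and 127 CPM in WB1P-Myc (29 UMIs in 9 cells, 16 of them in 1 cell). In WB1P the first subcluster (108 CPM, 16 UMIs) and the fourth (81.3 CPM, 7 UMIs) had intervals that overlapped with it. The log2 ratio of the Arg1-led cells over the other leukocytes was 1.43 (0.53 to 2.30) in WB1P, 2.90 (2.00 to 3.83) in WB1P-Myc and 2.16 (1.55 to 2.76) over both models. Without the cell with most Csf1 UMIs on each side it was 1.71 (1.01 to 2.40). Without the WB1P-Myc fraction numbered 3 it was 1.56. Csf1r was lower in the Arg1-led cells than in the other leukocytes (−0.70, −1.06 to −0.36, both models). Over both models it was higher in the subcluster led by Ccl8 and Mrc1 (0.68, 0.37 to 0.98), where it reached 500 and 513 CPM. In WB1P the first subcluster stood above that, at 600 CPM (89 UMIs, against 43 in the Ccl8-led cells). In WB1P-Myc the first subcluster stood below, at 333 CPM. These subclusters were made from the same cells, so the ratios are descriptions.

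Csf2rb ranged from 382 to 471 CPM over the first 4 subclusters of WB1P, which did not differ beyond their intervals. In WB1P-Myc these ranged from 114 to 356 CPM, and the subcluster led by Mgl2 and Il1r2 was above the other leukocytes by a log2 ratio of 1.27 (0.79 to 1.73). Within subclusters, WB1P-Myc over WB1P was −1.63 (−2.10 to −1.16) in the first, −0.40 (−0.90 to 0.07) in the second, −0.86 (−1.47 to −0.25) in the third and −1.99 (−2.99 to −1.08) in the fourth. All 4 ratios were below 0, and that of the second had an interval that reached no change.

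Csf1r within subclusters was lower in WB1P-Myc in the first, at 333 against 600 CPM (−0.85, −1.21 to −0.47), and stood at −0.29, −0.37 and 0.04 in the next 3 subclusters, each with an interval that spans no change. Csf1 was lower in the first subcluster, at 29.0 against 108 CPM (−1.90, −2.95 to −0.83). In the second, WB1P-Myc held no Csf1 UMI against 8, and the upper end of the interval was 0.25, which spans no change. In the fourth, WB1P-Myc held no Csf1 UMI against 7, and the upper end of the interval was −1.04. In the Arg1-led cells the Csf1 ratio was −0.28 (−1.16 to 0.64). Socs3 was below 0 in each of these 4 subclusters (−1.78, −0.87, −1.65 and −0.93), with intervals that spanned no change in those led by Mgl2 and by Ccl8. Csf3r was highest in the fourth subcluster, at 69.7 and 65.2 CPM from 6 and 8 UMIs. The T or NK-like cells held 1 Csf1r UMI and none of Csf1, Csf2rb or Csf3r, and leaving them out changed no ratio beyond its interval.

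**Figure D3:**
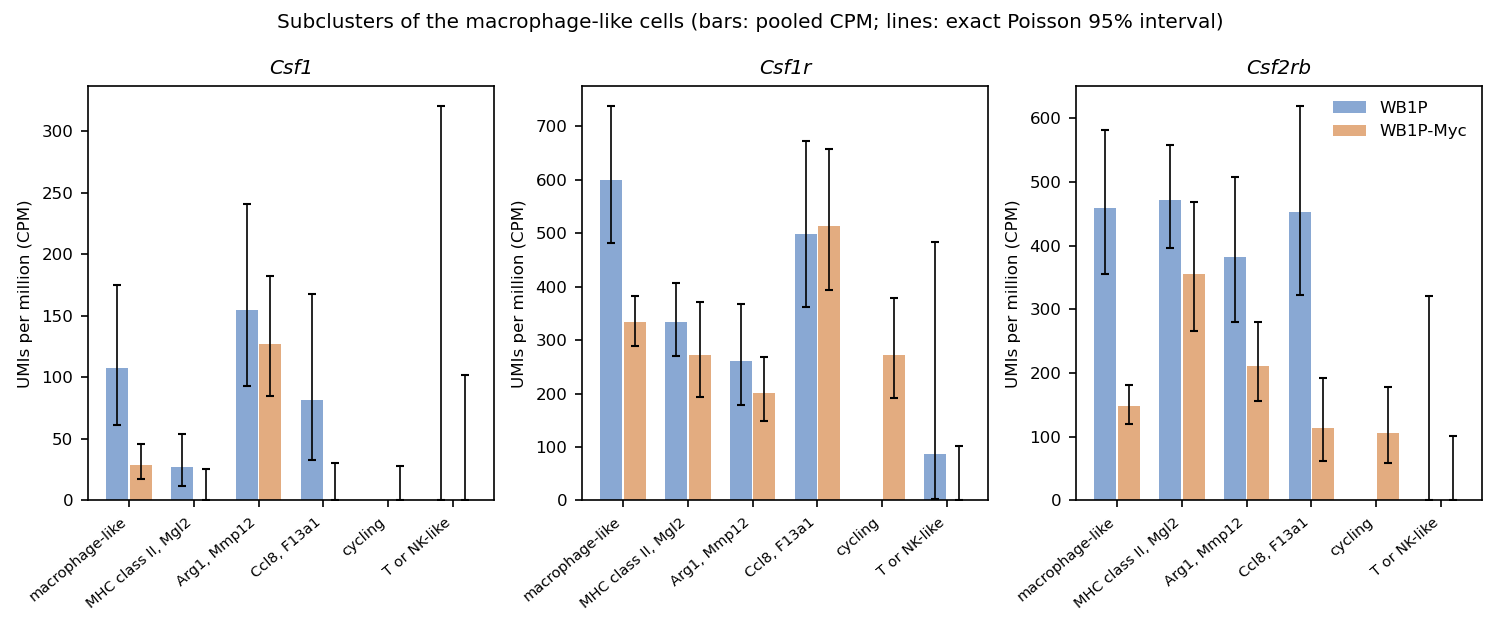
Level (CPM, linear axis) of Csf1, Csf1r and Csf2rb in the 6 subclusters of the macrophage-like cells in WB1P and WB1P-Myc, with exact Poisson 95% intervals as lines. Subclusters with under 10 cells in a model are left out. Csf1 was highest in the subcluster led by Arg1 (154 and 127 CPM), and Csf2rb was between 382 and 471 CPM in the first 4 subclusters of WB1P.

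The fibroblast-like cells were clustered again in the same way. A subcluster led by Acta2, Tagln and Lrrc15, the pattern of myofibroblastic cancer-associated fibroblasts, held 123 WB1P and 141 WB1P-Myc cells, and 5 pericyte markers also led it. A subcluster led by Pi16, Clec3b, C3 and Ly6c1, the pattern of inflammatory cancer-associated fibroblasts, held 91 and 113 cells. The remaining 25 cells were shallow and left unnamed, with 3 Csf1 UMIs in WB1P (591 CPM) and 13 in WB1P-Myc (466 CPM), the highest levels of the 3 subclusters.

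Csf1 was present in both and higher in the inflammatory-like subcluster, at 371 CPM in each model, than in the myofibroblastic-like subcluster, at 224 CPM in WB1P and 231 CPM in WB1P-Myc. The log2 ratio was 0.73 (0.27 to 1.19) for WB1P cells and 0.68 (0.32 to 1.04) for those of WB1P-Myc. The WB1P ratio was 1.25 without mixed cells and 1.66 when thinned to 600 UMIs. Between the models the ratio was 0.00 (−0.41 to 0.41) in the inflammatory-like and 0.04 (−0.37 to 0.46) in the myofibroblastic-like cells, both with intervals that span no change.

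Il34 had the other order in WB1P, where all 13 UMIs lay in the myofibroblastic-like subcluster (36.4 CPM). In WB1P-Myc it stood at 17.2 CPM there and at 14 CPM (5 UMIs) in the inflammatory-like subcluster. At a finer resolution, 112 pericyte-like cells (Rgs5, Higd1b, Notch3) came apart. They held Csf1 at 72.0 CPM in WB1P and 165 CPM in WB1P-Myc, below the inflammatory-like cells in both models, and the ratio of inflammatory-like over myofibroblastic-like cells was then 1.53 (0.89 to 2.19) for WB1P cells and 0.54 (0.08 to 1.02) for WB1P-Myc cells. A cluster of 49 cells led by cell cycle genes held Csf1 at 559 and 303 CPM at that resolution. Of the 13 Il34 UMIs of WB1P, only 5 then lay in the myofibroblastic-like cells (23.1 CPM). The pericyte-like cells held 2 (28.8 CPM), an unnamed cluster 1, and the cell cycle cluster 5, with 3 of these in 1 cell. In WB1P-Myc, Il34 stood at 39.2 CPM in the pericyte-like cells and at 17.1 CPM in the myofibroblastic-like cells.

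**Figure D4:**
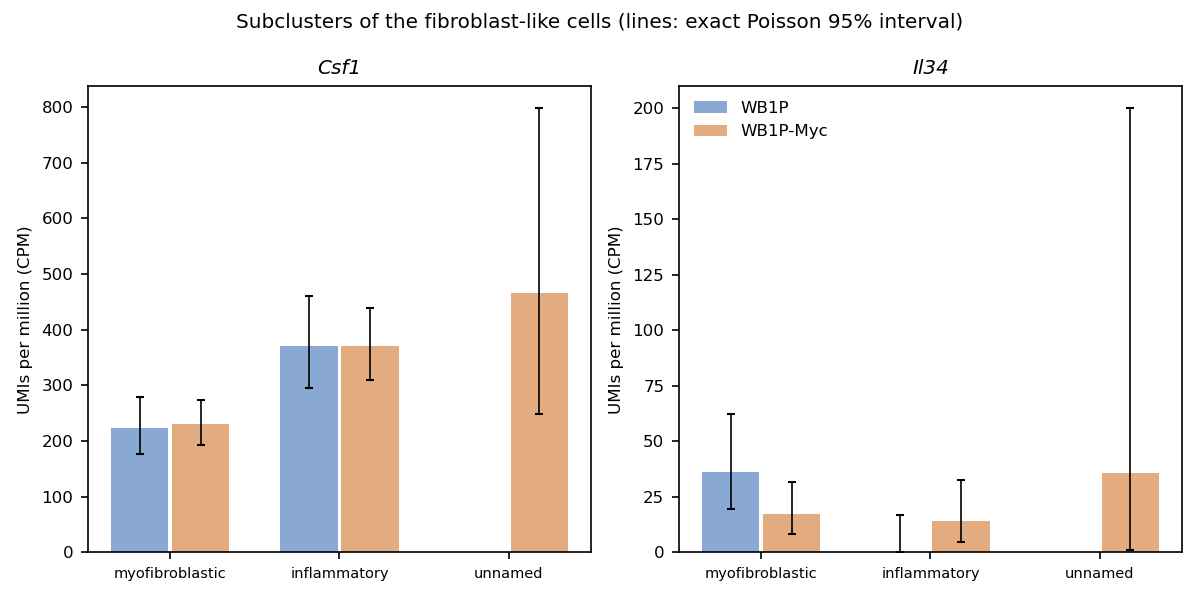
Level (CPM, linear axis) of Csf1 and Il34 in subclusters of the fibroblast-like cells in WB1P and WB1P-Myc, with exact Poisson 95% intervals as lines; subclusters with under 10 cells in a model are left out. Csf1 stood at 371 CPM in the inflammatory-like cells of both models and at 224 and 231 CPM in the myofibroblastic-like cells.

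Genes with the most similar pattern over cell classes were sought by Pearson correlation of log2(CPM + 10) over the 10 combinations of class and model with at least 20 cells, among 10290 genes with at least 100 UMIs. The points share libraries and depth, and with so few of them the values are descriptions. The 5 genes most like Csf1 were Dram1 (0.97), Col14a1 (0.96), Mnda (0.96), Glipr2 (0.95) and Spon1 (0.95). Those most like Csf1r were Igsf6, Gpr65, Pld4, Bcl2a1b and Clec4n, all at 1.00 when rounded. Among those most like Csf2rb were St8sia4 (0.98), Csf2rb2 (0.97), Abi3 (0.97) and Neurl3 (0.97). With log2(CPM + 1), 2, 2 and 1 of the 5 genes of each stayed among the 5 most similar, and with Spearman correlation 1, 1 and 0.

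The limits on genes per barcode removed much of the Csf3r, Csf2 and Csf3 UMIs of WB1P. Of 161 Csf3r UMIs in the WB1P tables, 80 (49.7%) lay in the 1324 barcodes with under 200 genes, at 351 CPM, and 51 (31.7%) in the 948 barcodes with 200 to 449 genes, at 123 CPM. Only 21 (13%) lay in the kept cells, at 6.27 CPM. Over the 4 fractions the barcodes with under 200 genes stood at 23.0, 444, 566 and 673 CPM. Of the 100 WB1P barcodes with under 450 genes and a Csf3r UMI, 59 (59.0%, exact binomial interval 48.7 to 68.7) also held UMIs of 2 or more of the listed neutrophil markers, such as S100a8, S100a9 and Cxcr2, against 196 of 2172 (9.02%) without a Csf3r UMI.

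When barcodes with 200 genes or more were kept, a cluster of 226 cells with S100a8 and S100a9 as its top genes appeared, 163 of them from WB1P and 63 from WB1P-Myc, with a median of 477 UMIs. Besides 4 neutrophil markers (S100a8, S100a9, Cxcr2, G0s2), 6 T or NK cell markers also led it, so it may hold more than 1 cell type. Csf3r stood there at 638 CPM (48 UMIs) in WB1P and 127 CPM (11 UMIs) in WB1P-Myc. The models cannot be compared in this range, since each table was cut at 1000 barcodes and the WB1P-Myc tables hold no barcode with under 200 genes.

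At the other end, the 40 WB1P barcodes with over 4000 genes held 22 of 40 Csf2 UMIs (55%, in 6 barcodes with at most 9 in a barcode) and 40 of 86 Csf3 UMIs (46.5%, in 9 barcodes, 21 of them in 1). They also held 18 of 49 Il34 UMIs (36.7%). Their level of Csf2 was 13.8 CPM and of Csf3 25.1 CPM. The 134 such barcodes of WB1P-Myc held no Csf2 UMI and 2 Csf3 UMIs. The study used this upper limit against doublets, and whether these barcodes were doublets or large cells was not tested.

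**Figure D5:**
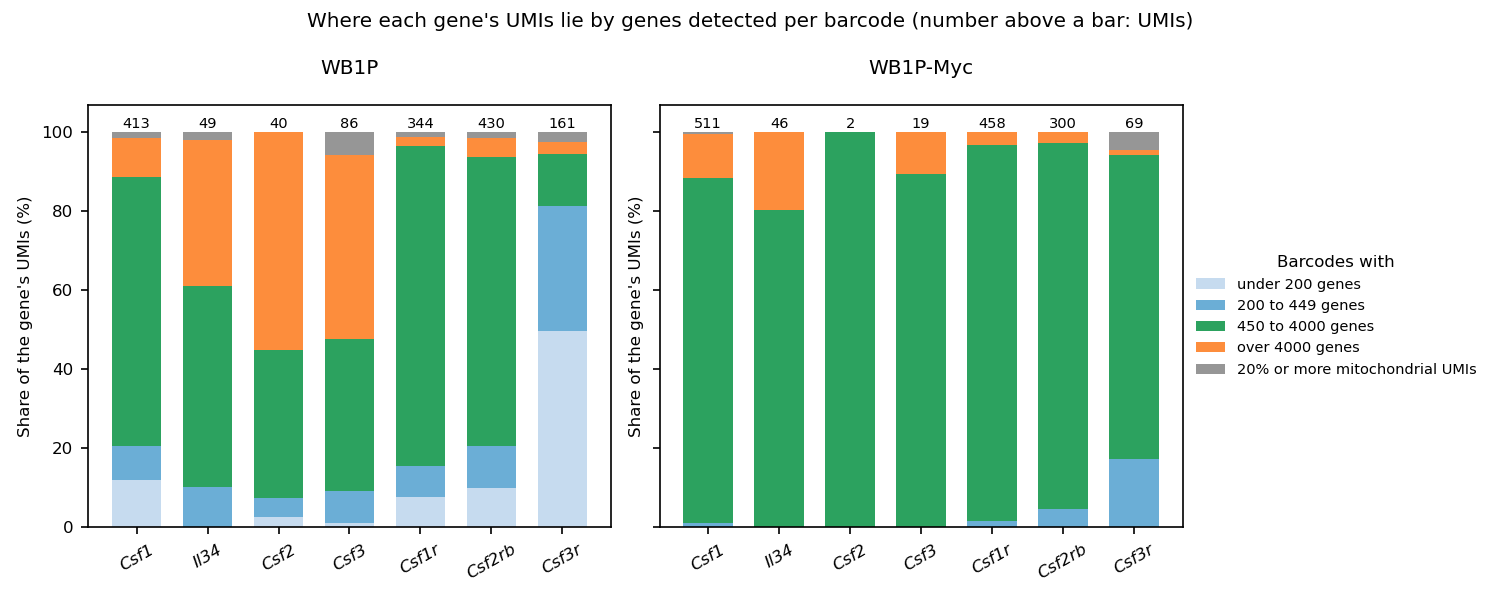
Share (%) of the UMIs of each of the 7 genes by the number of genes detected per barcode, in all barcodes of the WB1P and WB1P-Myc HiSeq tables; numbers above the bars are UMIs. In WB1P, barcodes with under 200 genes held 49.7% of the Csf3r UMIs and barcodes with over 4000 genes held 55% of the Csf2 UMIs.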

How the data were processed

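Drop-seq libraries of 4 droplet fractions from each of 2 tumour models were sequenced on MiSeq and HiSeq. The authors made the deposited tables of UMI counts per gene and barcode with dropseq-tools and used Scanpy afterwards, and per the labels the genome was mm10. Each table holds 1000 barcodes. The counts are raw and were used as deposited; the MiSeq tables served as an alternative only.

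Barcodes with 450 to 4000 genes and under 20% mitochondrial UMIs and genes in 3 or more cells were kept, as in the study's methods. Counts scaled to 10000 per cell were log-transformed, and 30 principal components, 20 neighbours and Leiden clustering at resolution 0.3 gave the classes (scanpy 1.11.5, igraph 0.11.9). Subclusters used 40 components at resolution 0.5 (leukocytes) or 0.3 (fibroblasts). No doublet caller was run beside the upper limit on genes. A class name needed 3 leading markers; that a name with fewer than 2 markers among the top 10 genes needs 5 leading markers was set after the clusters were seen. The genes and lists were chosen with earlier results of these data known.

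UMIs were summed per class and model, and CPM with exact Poisson intervals, ratios with exact conditional binomial intervals and shares with Clopper-Pearson intervals were computed (scipy 1.17.1); these cover counting error only, and a count of 0 was bounded by 3 counts. No test was run, since each model is 1 sample. Genes of the wider list were named where they passed 2-fold, up to 10 by size, and the 7 genes in every class. TMM factors came from edgeR 4.0.16 and size factors from DESeq2 1.42.0. The ratio and interval functions were tested on simulated data. Of the genes most similar to Csf2rb, 1 is not reported here.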

Additional observations from a re-analysis of the deposited data

Results flagged for a closer look

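Over the 4 fractions of a class and model, 1 fraction stood apart from the other 3 in 6 of 34 groups of values, by the share of the range that its gap to the nearest fraction takes, above Dixon's 95% critical value. Chance gives this in about 1 in 20 groups of continuous values, a rate that does not hold for genes with a few UMIs. Csf1 in the unnamed WB1P-Myc cells led by Col2a1 and Acan had 13.7, 10.6, 10.8 and 10.2 CPM (gap share 0.838). Csf1r in WB1P-Myc fibroblast-like cells had 4.51, 3.8, 7.92 and 4.40 CPM (0.82947). The other 4 had a single fraction with any UMI (gap share 1): Csf3 in WB1P-Myc fibroblast-like cells (11.4 CPM) and epithelial-like cells (1.98 CPM), and Csf3r in the epithelial-like cells of WB1P (3.68 CPM) and WB1P-Myc (2.78 CPM).

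Csf2rb was higher in macrophage-like than in endothelial-like cells in all 3 WB1P fractions with 10 or more cells of each class, and lower in all 3 such fractions of WB1P-Myc (1 of 42 contrasts). In the remaining WB1P-Myc fraction, with 9 endothelial-like cells, it was higher in macrophage-like cells (195 against 141 CPM). The difference was not tested, and the WB1P endothelial-like values rest on 7 UMIs.

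In barcodes outside the limits on genes, which entered no main comparison of classes or models, Csf3r had 80 UMIs in WB1P barcodes with under 200 genes and 51 in those with 200 to 449 genes. Csf2 had 22 UMIs and Csf3 had 40 UMIs in the WB1P barcodes with over 4000 genes.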

How the results depend on the processing

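No paired analysis was possible because the fractions of the 2 models share only a number and no test was run. Of 567 alternative values for 35 results, 505 stayed within the counting interval of the main value or within 1.5 times a count, 61 moved beyond it, and 1 ratio whose interval lay on one side of 0 changed sign. Some ratios with an interval that spans 0 also changed sign. The cause of each was not tested unless the setting itself gives it. All values here are log2 ratios unless counts are named. With Leiden resolution 0.6, where only 10 WB1P-Myc cells were epithelial-like, Csf1 in epithelial-like cells between the models was 0.37 in place of −1.26, Csf1 fibroblast over epithelial in WB1P-Myc 2.83, and Csf1r macrophage over other cells in WB1P-Myc 5.68. Csf1 in the Arg1-led leukocytes was 1.50 with the 2000 most variable genes, 1.03 with a minimum of 200 genes and 1.35 with leukocyte resolution 0.8, while resolution 0.3 gave no such subcluster. With classes set per cell from its own markers, Csf1r in WB1P-Myc was 5.58, and Csf1 between the models was −1.72 in macrophages, −1.05 in fibroblasts and −1.90 in epithelial cells; of 482 WB1P-Myc cells then called fibroblasts, 249 lay in the fibroblast-like cluster and 177 in epithelial-like clusters. In the MiSeq tables, which have few UMIs, Csf1 fibroblast over macrophage was 4.63 and Csf1r 7.66 in WB1P-Myc, and Csf1 between the models in macrophages −2.72; with classes per cell these were 3.77, 7.21 and −2.69, Csf1 fibroblast over epithelial in WB1P-Myc was 3.15, and Csf1 between the models was −1.05 in fibroblasts and −0.58 in epithelial cells. Csf1r in WB1P-Myc was 7.11 without mixed cells. Thinned to 600 UMIs, Csf1 fibroblast over epithelial in WB1P was 2.35 and Csf1 between the models in fibroblasts 0.56. Without the cell with most UMIs in each group, an alternative chosen after seeing the data, Csf1 fibroblast over macrophage in WB1P-Myc was 3.54. Csf1 between the models in macrophage-like cells, −1.04, was just under 2-fold at resolution 0.6 (−0.94), with the 2000 most variable genes (−0.97), with a minimum of 200 genes (−0.97) and when thinned (−0.98), and past it with TMM (−1.14) and DESeq2 factors (−1.12). Il34 between the models in fibroblasts was −2.33 in the MiSeq tables with classes per cell, and Sdc1 in epithelial cells ranged from −3.47 without mixed cells to −0.72 in the MiSeq tables. Csf2rb in epithelial cells reached −4.51 with the 2000 most variable genes and −4.42 with the genes of the pathway kept in the clustering. Leaving out each fraction in turn moved only Cebpb beyond its interval (−2.86 to −2.43). Genes 2-fold lower and higher in WB1P-Myc numbered 575 and 1263 in macrophage-like cells at 10 UMIs, 163 and 272 at 50 UMIs, and 1912 and 4045 at 1 UMI. In fibroblast-like cells they numbered 521 and 939, 86 and 121, and 2076 and 3465. In epithelial-like cells they numbered 2393 and 2605, 1423 and 1335, and 4166 and 5159. Depth limits Csf2, Csf3, Csf3r, Il34 and the endothelial-like cells, where a few cells can decide a level.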
